A study of Mus musculus with 12 samples.

Results

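Transforming growth factor beta (TGF-beta) and the bone morphogenetic proteins (BMPs) are secreted ligands that bind pairs of receptor kinases at the cell surface. The receptors phosphorylate SMAD proteins, which enter the nucleus and switch target genes on or off, while inhibitory SMADs and ubiquitin ligases end the signal. In the liver, BMP ligands from sinusoidal endothelial cells act on hepatocytes through the co-receptor hemojuvelin (Hjv) to induce Hamp, which encodes the iron hormone hepcidin, and TGF-beta acts on stellate cells in the formation of scar tissue. The genes described here were those whose peaks carry the KEGG annotation of the TGF-beta pathway, without genes that are also annotated to the cell cycle, Wnt, Notch or ErbB pathways or to the collagen-containing matrix. This rule used annotation only. It gave 37 genes with 59 peaks, out of 10277 named genes with 17503 peaks.

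The peaks came from m6A RNA immunoprecipitation and sequencing of liver from C57BL/6 mice. N6-methyladenosine (m6A) is a methyl mark on adenosines of mRNA that the METTL3 enzyme complex writes. The series compared wild-type with Mettl3-deficient mice, and the labels give 12 libraries in 4 groups of 3: immunoprecipitated and input RNA of each genotype. The labels name neither the allele, nor the cells that lost Mettl3, nor an age beyond postnatal.

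Each value below is a log2 fold change between the genotypes or a log10 false discovery rate (FDR) from the authors' deposited table, with 1 value per peak and none per library. The spread between mice and the read depth are therefore unknown, and no error stands beside a value. The header does not name the numerator. As METTL3 writes the mark, a negative value likely means less m6A signal in Mettl3-deficient liver, which rests on the design and not on the table. Called peaks are those with an FDR of at most 0.05 in that table, or a log10 FDR of -1.30. For each gene the leading peak is the one with the lowest FDR. In whole liver, fewer cells of a type and a change within each cell cannot be told apart. All 5 hepatocyte markers looked up (Alb, Apob, Hnf4a, Ttr, Cyp2e1) had listed peaks, but the table holds no expression level to check the tissue by.

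Of the 13 peaks labelled 5′ UTR, 11 reach a transcript start by the authors' distances. The sequence around the start is shown for the 6 genes whose 5′ UTR peak covers the start of a RefSeq promoter window (GRCm38.p6, the same build as the mm10 of the peaks). Each line is the transcribed strand, 15 bases before and 15 bases from the start, and the capital is the first transcribed base of that RefSeq model.
Hamp (chr7:30944015-30944044, minus strand): gactggctcctagacAgccaccacacaagt
Id2 (chr12:25096078-25096107, minus strand): cgcccggctcgcgctTcattctgaaccgag
Id3 (chr4:136143807-136143836, plus strand): gctgcaggcgtgcgcGcactgtttgctgct
Smad6 (chr9:64022045-64022074, minus strand): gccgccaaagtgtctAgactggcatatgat
Ppp2r1a (chr17:20945439-20945468, plus strand): cgccccgcccgatccCggattccgcctgga
Bmp6 (chr13:38345701-38345730, plus strand): tgcgggagagtggagGatcctggccgtcgc

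The first base was A in 2 of these 6 genes. Over all 32851 promoter windows it was A in 34.4%, and over the 1520 listed genes with a 5′ UTR peak on a window's start in 32.2%. Antibodies against m6A also bind a related mark, m6Am, on the first transcribed base when that base is A. Its part in the 5′ UTR values was not tested.

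Hamp, Id2, Id3 and Smad6 are BMP targets with a called peak over the transcript start, although that of Hamp spans the whole gene. The 250 bases before the start are printed for the first 3, with GGCGCC in capitals, the letters known from BMP response elements, which read the same on both strands. Hamp and Id2 hold them, and Id3 and Smad6 do not.
Hamp (chr7:30944030-30944279, minus strand): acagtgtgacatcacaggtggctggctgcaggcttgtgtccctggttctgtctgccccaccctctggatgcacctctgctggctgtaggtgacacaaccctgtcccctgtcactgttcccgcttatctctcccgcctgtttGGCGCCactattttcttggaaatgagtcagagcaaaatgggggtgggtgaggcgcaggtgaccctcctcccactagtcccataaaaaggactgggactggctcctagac
Id2 (chr12:25096093-25096342, minus strand): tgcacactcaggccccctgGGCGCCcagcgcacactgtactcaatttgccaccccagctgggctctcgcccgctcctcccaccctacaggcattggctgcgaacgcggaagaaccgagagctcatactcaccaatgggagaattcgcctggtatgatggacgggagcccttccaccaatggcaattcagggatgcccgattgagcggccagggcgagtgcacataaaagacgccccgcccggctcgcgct
Id3 (chr4:136143572-136143821, plus strand): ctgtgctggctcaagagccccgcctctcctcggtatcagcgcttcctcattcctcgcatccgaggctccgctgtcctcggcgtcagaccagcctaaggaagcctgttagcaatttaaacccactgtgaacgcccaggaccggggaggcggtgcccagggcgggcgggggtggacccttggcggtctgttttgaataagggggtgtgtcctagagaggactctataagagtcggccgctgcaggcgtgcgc

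GGCGCC was present in a promoter window of 11 of the 29 genes that have one in the table, against 13.4% of all 27025 genes with a window. Those 27025 were not limited to genes with a listed peak, and base composition was not matched. The search also ran past the start: the match of Acvr1b begins at position 18 after it. The letters GTCTAGAC, a SMAD-binding palindrome, were found in 1 of the 29, Smad6, where they run across the start shown above, against 0.248% of all genes. Matching letters do not show a bound site.

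By leading peak, the 37 genes were more often negative than positive. The peak was negative and called in 21 genes, positive and called in 10 and not called in 6. Over all listed genes 81.1% had a called leading peak, 47.6% a negative and 33.6% a positive one, against 83.8%, 56.8% and 27.0% of the 37. Negative leading peaks were also larger: their median was -1.86 on the log2 scale, a ratio of 0.275, and that of the positive ones 0.76, a ratio of 1.69. The corresponding medians over all listed genes were -1.41 and 0.74. Of the 21 negative genes 17 passed an absolute log2 fold change of 1, and of the 10 positive genes 3 did. The median over the 37 leading peaks was -0.99, against -0.52 over all genes, and whether the 2 differ was not tested.

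The negative majority of leading peaks depended on wide peaks. Peaks span introns on the genome, and 16 of the 59 were over 1000 bp wide, up to 18537 bp. All 16 were called, 12 of them negative and 4 positive. Of all 5857 listed peaks of that width 87% were called, 46.6% negative and 40.3% positive. With peaks of up to 1000 bp alone, 27 genes had a peak, with 10 negative, 11 positive and 6 uncalled leading peaks, and the median turned to 0.59. Of all 7781 listed genes with such a peak 74.8% had a called leading peak, 41.4% a negative and 33.4% a positive one, with a median of 0.32. Counted by peak and not by gene, the 43 peaks of up to 1000 bp still held more negative than positive calls, 18 against 12, with a median of -0.64. Over all 11646 listed peaks of that width 70.8% were called, 37.6% negative and 33.3% positive.

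**Figure D1:**
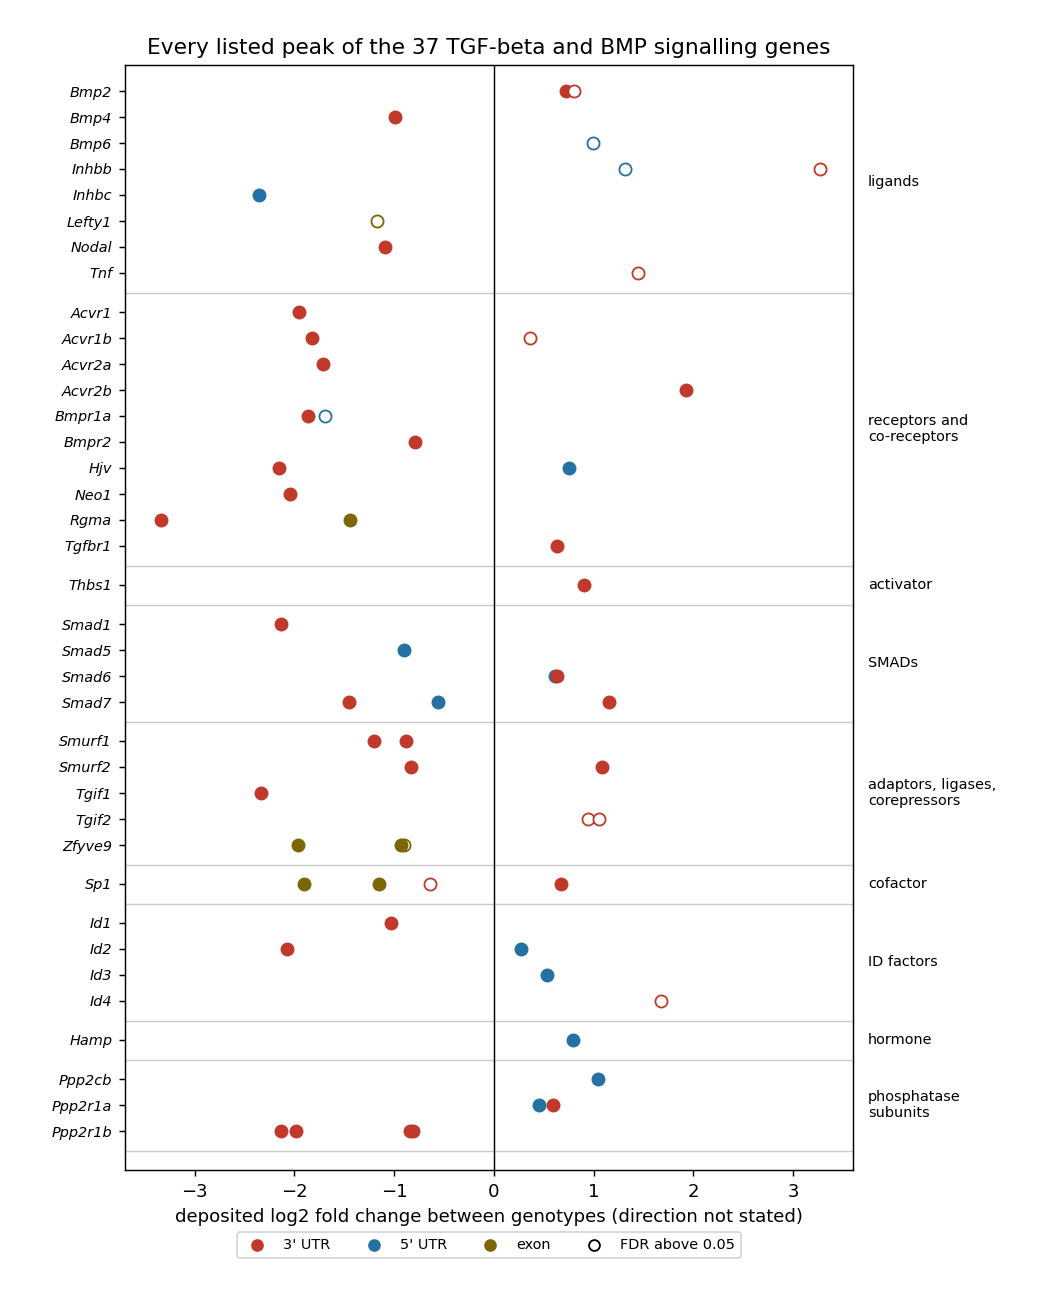
Deposited log2 fold change (horizontal axis) of each of the 59 peaks, by gene (vertical axis) and role. Colour marks the annotated feature, and open circles are peaks with an FDR above 0.05. Of the 10 receptors and co-receptors 8 have a negative called leading peak, against 47.6% of all listed genes.

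Ligands were called least often, in 4 of 8 genes, against 81.1% of all listed genes. Of the 8 ligand genes, 3 had a negative called leading peak, 1 a positive one and 4 none that was called. Inhbc, which encodes the inhibin beta C chain of activin C and is made in hepatocytes, had a single peak from 127356322 to 127370431 on chromosome 10. In the authors' deposited table it stands at -2.35 with the log10 FDR at its floor of -434. This peak is labelled 5′ UTR but covers 99.2% of the gene's RefSeq span. The authors' deposited table gives -0.99 for Bmp4 (log10 FDR -10.5) and -1.09 for Nodal (log10 FDR -1.67), both in the 3′ UTR. Bmp4 and Nodal are best known as signals of the embryo.

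Both BMP ligands that control hepcidin had positive values, of which only that of Bmp2 was called. For Bmp2 the authors' deposited table gives 0.72 in the 3′ UTR (log10 FDR -3.72) and, closer to the gene's end, 0.80 with no call (log10 FDR -0.96). Bmp6 stood at 0.99 in the 5′ UTR there and was not called (log10 FDR -1.04, authors' deposited table). The largest value of any of the 59 peaks was that of Inhbb, the inhibin beta B gene, at 3.27 in the authors' deposited table, yet its log10 FDR of -1.24 lies just outside the threshold. Tnf, an inflammatory cytokine that KEGG places in this pathway, stood at 1.45 and Lefty1, a Nodal antagonist, at -1.17 in the authors' deposited table, neither of them called. Bmp2 and Bmp6 are made mainly by liver endothelial cells. The 5 endothelial markers looked up (Pecam1, Stab1, Cdh5, Lyve1, Clec4g) were all positive and called, from 0.25 to 1.22 in the authors' deposited table. Over all listed genes 81.1% had a called leading peak and 33.6% a positive one. The lowest marker value, 0.25, lies below 0.34, the median of all listed peaks. The part of cell type in these values was not tested.

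Receptors and co-receptors were all called, and 8 of the 10 were negative. Over all listed genes 81.1% had a called leading peak and 47.6% a negative one, and the difference was not tested. Among type I receptors of BMPs and activins, the authors' deposited table gives -1.95 for Acvr1 (log10 FDR -116), -1.86 for Bmpr1a (log10 FDR -22.0) and -1.82 for Acvr1b (log10 FDR -23.6), each labelled 3′ UTR, although the peak of Acvr1 spans 12041 bp. The peaks of the type II receptors, which phosphorylate the type I chain, stood in the authors' deposited table at -1.71 for Acvr2a (log10 FDR -15.1) and -0.79 for Bmpr2 (log10 FDR -2.14). Acvr2b, a close relative of Acvr2a, went the other way at 1.93 in the authors' deposited table, but its log10 FDR of -1.42 was near the threshold. The remaining positive receptor was Tgfbr1, the type I receptor of TGF-beta itself, at 0.63 in the last stretch of its 3′ UTR (log10 FDR -1.66, authors' deposited table). A second 3′ UTR peak of Acvr1b, at 0.36, and a 5′ UTR peak of Bmpr1a, at -1.69, were not called in the authors' deposited table.

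The BMP co-receptors were negative by leading peak. Rgma, a relative of hemojuvelin, had the lowest value of the 59 peaks, -3.34 in the authors' deposited table, over 91 bp of its 3′ UTR, with a modest log10 FDR of -2.38. Its exon peak stood at -1.44 with a log10 FDR of -1.36 in the authors' deposited table, just inside the threshold. Neo1, which encodes neogenin and binds hemojuvelin, had 1 peak, at -2.04 in the 3′ UTR (log10 FDR -66.0, authors' deposited table).

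Hjv itself, on chromosome 3 from 96525163 to 96529216, was split between its ends. The authors' deposited table gives 0.75 for the peak from 96525172 to 96526508 at the transcript start (log10 FDR -27.0). The peak from 96528226 to 96529061 in the 3′ UTR stands at -2.15 in the authors' deposited table, with the log10 FDR at the floor. The 2 values lie 2.90 apart on the log2 scale, the 3′ UTR being the lower.

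Thbs1 encodes thrombospondin 1, a secreted protein that activates TGF-beta. It stood at 0.90 in the 3′ UTR (log10 FDR -9.47, authors' deposited table).

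**Figure D2:**
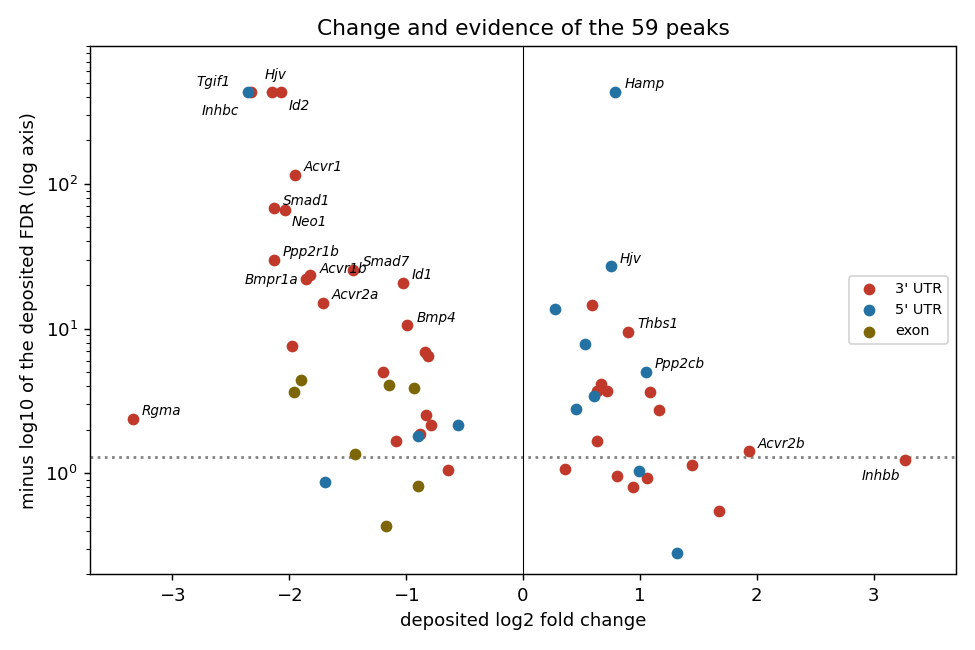
Deposited log2 fold change (horizontal axis) against minus log10 of the deposited FDR (vertical axis, log scale) of the 59 peaks, coloured by feature, with the dotted line at FDR 0.05. The 5 peaks at the top lie at the floor of the FDR scale: Inhbc, Tgif1, Hjv and Id2 on the negative side and Hamp on the positive side.

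The SMADs that carry BMP signals were negative, and the inhibitory SMADs differed from each other. Smad1 stood at -2.13 over 2327 bp of its 3′ UTR, a ratio of 0.228 (log10 FDR -67.7, authors' deposited table). Smad5, which acts beside Smad1, stood at -0.90 in an internal peak labelled 5′ UTR (log10 FDR -1.82, authors' deposited table). Smad6, an inhibitor induced by BMPs, was positive at both ends, where the authors' deposited table gives 0.61 at the transcript start and 0.63 in the 3′ UTR. Smad7, the inhibitor of both TGF-beta and BMP receptors, had -0.56 in the 5′ UTR in the authors' deposited table. That peak reaches a transcript start by the authors' distances but begins 1002 bp inside the gene's RefSeq span. Smad7 also had -1.45 in a peak of 18537 bp labelled 3′ UTR and 1.16 in the last part of the 3′ UTR (authors' deposited table). All 3 Smad7 peaks were called, so 1 gene held changes in both directions. Whether the peaks lie on the same transcript is not known.

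Of the 5 adaptor, ligase and corepressor genes, the corepressor Tgif1 had the lowest FDR. Its 3′ UTR peak stood at -2.33 with the log10 FDR at the floor (authors' deposited table), while both peaks of its relative Tgif2, at 0.94 and 1.06, were not called. The Tgif2 peaks share 77 bp and are 1 stretch listed as 2 peaks. Smurf1, a ubiquitin ligase for SMADs and receptors, had peaks of -1.20 and -0.88 in the authors' deposited table, both called. Its relative Smurf2 held -0.83 and, nearer the gene's end, 1.09 in the authors' deposited table, also both called. Zfyve9, which encodes the adaptor SARA that presents SMADs to the TGF-beta receptor, had 3 peaks in exon 4 of 18, at -1.96, -0.93 and -0.90 in the authors' deposited table, the last of them not called. Sp1, a transcription factor that works with SMADs on target promoters, had -1.90 and -1.15 in exon 3 of 6, both called, and in the 3′ UTR an uncalled peak at -0.64 and a called one at 0.67 near the gene's end (authors' deposited table).

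The target genes of BMP signalling went both ways. The ID proteins are inhibitors of helix-loop-helix transcription factors, and Id1 is the usual readout of BMP activity in liver. In the authors' deposited table Id1 stood at -1.03 in a 3′ UTR peak that reaches the gene's end (log10 FDR -20.7). Id2 had -2.07 over 1178 bp of its 3′ UTR, at the FDR floor, and 0.27 at its start (log10 FDR -13.6, authors' deposited table). Id3 had 1 peak, 0.53 at the start (log10 FDR -7.82), and Id4 1 uncalled peak at 1.68 (authors' deposited table).

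Hamp had a single peak that spans the whole gene, from 30942368 to 30944032 on chromosome 7, against a RefSeq span of 30942368 to 30944029. It stood at 0.79, a ratio of 1.73, with the log10 FDR at the floor (authors' deposited table). The feature label reads 5′ UTR, but the peak gives no position within the transcript. Mice carry a second, near-identical hepcidin gene, Hamp2, for which no peak was analysed here, and reads of the 2 genes may not have been told apart.

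Leading peaks of genes along the hepcidin axis were therefore mixed. Bmp2 and Hamp were positive and Bmp6 was not called. The receptors Acvr1, Bmpr1a, Acvr2a and Bmpr2 and the co-factors Hjv and Neo1 were negative, as were Smad1 and Smad5. In contrast, the receptor Acvr2b, the inhibitor Smad6 and the start peak of Hjv were positive, and Smad7 held both signs. These peaks lie in different parts of their genes, so they give no order of signalling.

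The phosphatase subunits that KEGG adds to the pathway differed between paralogs. Protein phosphatase 2A is a serine and threonine phosphatase made of catalytic, scaffold and regulatory chains. Its catalytic chain gene Ppp2cb stood at 1.05 at the start (log10 FDR -5.01), and the scaffold gene Ppp2r1a at 0.45 and 0.59 in the 5′ and 3′ UTR (authors' deposited table). The second scaffold gene, Ppp2r1b, had 4 called peaks labelled 3′ UTR, at -2.13, -1.98, -0.84 and -0.81 in the authors' deposited table. The latter pair shares 673 bp and is 1 stretch listed as 2 peaks.

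**Figure D3:**
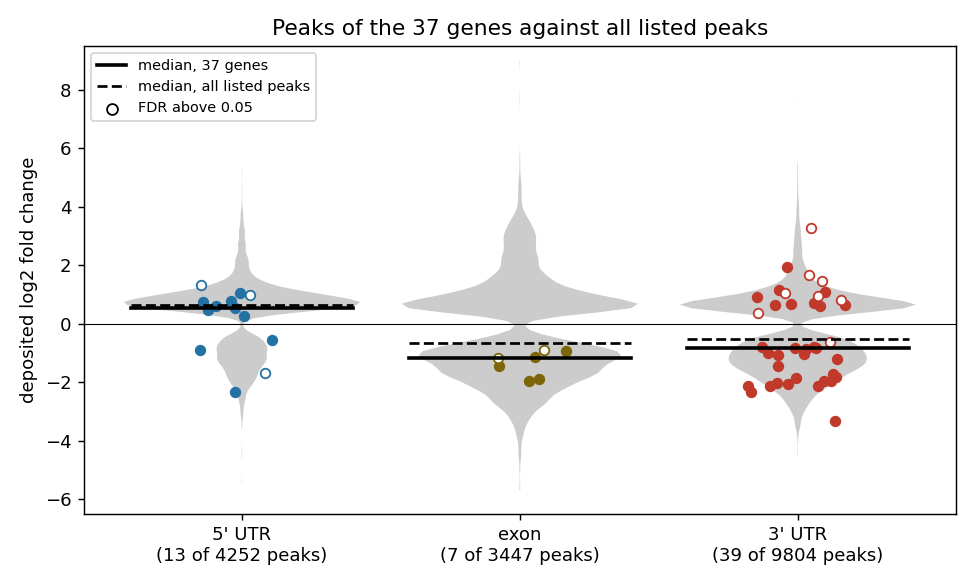
Deposited log2 fold change (vertical axis) of the peaks of the 37 genes (points, open where the FDR is above 0.05) over the distribution of all listed peaks (grey), by annotated feature (horizontal axis, with the number of peaks). Solid and dashed lines are the medians of the 37 genes and of all listed peaks: 0.53 and 0.65 in the 5′ UTR, -1.17 and -0.68 in exons, -0.83 and -0.52 in the 3′ UTR.

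In the 5′ UTR the calls of these genes came close to those of the whole table, and in the 3′ UTR and in exons the share of negative calls was higher. None of these differences was tested. In the 3′ UTR 22 of 39 peaks were negative and called (56.4%), against 48.9% of all listed 3′ UTR peaks, and 9 were positive and called. In the 5′ UTR 7 of 13 were positive and called (53.8%), against 53.4% of all listed 5′ UTR peaks, and 3 were negative. In exons 5 of 7 peaks were negative and called (71.4%) and none positive, against 38.6% and 23.9% of all listed exon peaks, of which 62.5% were called. These 5 were 2 peaks of Zfyve9, 2 of Sp1 and 1 of Rgma, and the 22 of the 3′ UTR include 4 of Ppp2r1b. Neighbouring peaks of 1 gene were thus counted separately. The 7 positive 5′ UTR peaks were those of Hamp, Hjv, Id2, Id3, Smad6, Ppp2cb and Ppp2r1a. All 7 reach the transcript start by the authors' distances, but that of Hamp spans the whole gene. Among the negative ones, that of Inhbc covers the gene and that of Smad5 lies 20425 bp from the start.

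Called peaks of both signs were found in Hjv, Id2, Smad7, Smurf2 and Sp1, which are 5 of the 11 genes with at least 2 called peaks, or 45.5%. Over all listed genes with at least 2 called peaks the share was 37.4%. The 0.27 of Id2 lies below 0.34, the median of all listed peaks, and turns negative when changes are taken relative to it, which leaves 4 genes. With peaks of up to 1000 bp alone, 2 were left. Both UTRs held a called peak in 5 genes. Hjv and Id2 were positive in the 5′ and negative in the 3′ UTR, Smad6 and Ppp2r1a positive in both and Smad7 negative in both. The arrangement of Hjv and Id2 was present in 35.3% of the 1475 listed genes with called peaks in both UTRs.

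Within the 3′ UTR, peaks of up to 1000 bp that end at the gene's 3′ end were mostly positive, and those further upstream mostly negative. This split was made after the values were seen. Of the 9 peaks of up to 1000 bp whose downstream edge lies within 100 bp of the RefSeq end, 6 were positive and called, 1 negative and called and 2 not called. Positive and called were thus 66.7%, against 50.9% of all 2885 such peaks in the table, and upstream peaks were more often negative there too (2201 negative and 913 positive of 4186). The 6 were those of Smad7, Smurf2, Sp1, Smad6, Tgfbr1 and Ppp2r1a, from 0.59 to 1.16 in the authors' deposited table. The negative one was that of Id1. Of the 20 other peaks of up to 1000 bp, 11 were negative and called and 3 positive and called. All 10 wider 3′ UTR peaks were negative and called, while 93.1% of all 2466 such listed peaks were called, 65.5% negative and 27.7% positive. These 10 include the peaks of Tgif1 (-2.33) and Bmp4 (-0.99, authors' deposited table), which also reach the gene's end. With peaks of any width, 11 lay at the gene's end, 6 of them positive and called and 3 negative and called.

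**Figure D4:**
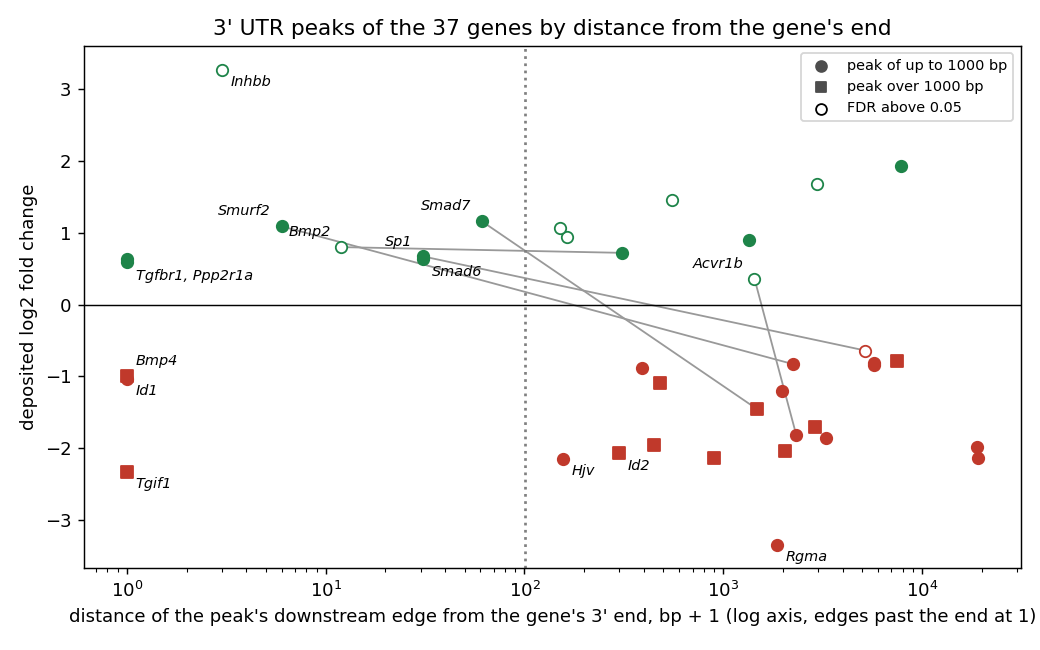
Deposited log2 fold change (vertical axis) of the 39 peaks labelled 3′ UTR against the distance of the peak's downstream edge from the RefSeq 3′ end of its gene (horizontal axis, log scale). Lines join peaks of 1 gene, the dotted line marks 100 bp, and Smad7, Smurf2 and Sp1 each have a positive peak at the end and a negative one upstream, that of Sp1 uncalled.

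Other genes of the pathway, taken from lists, gave the following counts by leading peak. Over all listed genes 81.1% were called, 47.6% negative and 33.6% positive, and no difference from these shares was tested. The rule left out 19 KEGG genes, and among these 8 had a negative, 6 a positive and 5 an uncalled leading peak. They include Tgfb1, the main TGF-beta ligand, at 0.74 in the authors' deposited table. They also include the SMADs of the TGF-beta branch, with -2.07 for Smad2 and -1.34 for Smad3 in the authors' deposited table, and Smad4, the partner of all signalling SMADs, at 1.79 with no call. Of 8 further iron and BMP regulators looked up, 4 had a listed peak, and 3 of these were negative (Atoh8, Tfr2, Hfe). The remaining one, Tmprss6, which encodes the protease that cleaves hemojuvelin, was positive at 0.62 in the authors' deposited table. Tfr2, transferrin receptor 2, held -0.91 in the 3′ UTR and 0.97 in the 5′ UTR (authors' deposited table), the same arrangement as Hjv. Of 10 other SMAD regulators with a listed peak (from 13 looked up), 8 were negative and 2 positive. Of 8 other receptors, activators and matrix regulators with a listed peak (from 14), 2 were negative and 6 positive. The positive ones include the receptor gene Acvrl1, at 0.69, and the co-receptor gene Eng, at 0.65 (authors' deposited table). The 2 negative ones were Furin, at -2.62, and Pcsk6, at -2.64 (authors' deposited table), neither of them a receptor gene. Of 7 common TGF-beta target genes with a listed peak (from 13), 1 was negative, 5 positive and 1 not called. That last list holds genes of stellate and other non-hepatocyte cells. All 4 stellate markers with a listed peak (of Dcn, Lum, Col1a1, Pdgfrb and Lrat) were positive and called, from 0.33 to 0.93. The lowest of these lies just below 0.34, the median of all listed peaks. The stellate markers are not a separate set: Col1a1 is also among the 7 target genes and Dcn among the 19 left out. Of 4 macrophage markers with a listed peak (from Csf1r, Cd14, Clec4f, Lyz2 and Adgre1), 2 were negative, 1 positive and 1 not called, and of the 5 hepatocyte markers 3 were negative and 2 positive. The part of cell type in these counts was not tested.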

How the data were processed

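The labels give 12 liver libraries in 4 groups of 3. Per the submitters' processing notes, HISAT2 2.1.0 and the mm10 build were used. How peaks were called and compared, and how replicates entered, is not given in the sources used here. The authors deposited 1 table of their own comparison with 17692 rows: a log2 fold change, a log10 FDR (both handled as a score, since 189 rows without a gene name hold displaced cells and were left out), a p-value rounded to 2 decimals and other measures such as position and width, per the file headers. The log10 FDR has a floor of -434, the next value being -321.

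Peaks were called at FDR 0.05, and counts and medians were computed over the whole table with Python 3.11.15, numpy 2.4.6 and pandas 2.3.3. The choice of genes, the calls and the choice of leading peaks were tested on simulated data. The steps on strand, distance and sequence were not. The planned count model was not fitted, as the values are no counts per library. Depth and the spread between mice are unknown. All 37 genes matched a RefSeq symbol (GRCm38.p6), and all 59 peaks overlap the span of their gene. Strand came from RefSeq promoter entries for 29 genes and from the deposited distances for 8; where both exist, over 7442 genes, they agree in 92.8%. Peak sequences were not read, as no genome was used here.

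The genes and lists were chosen with earlier results of these data known. Named were all called ligands, receptors and SMADs, 4 called genes per other role, genes with both signs, the leading peaks at both extremes (5 on each side) and those nearest the threshold; Hamp's role was added later.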

Additional observations from a re-analysis of the deposited data

How the results depend on the processing

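The 21 negative and 10 positive leading peaks stayed within 1.5 times under an FDR of 0.01, the largest called change, the mean over the peaks of a gene, the table's median as zero and 3′ UTR peaks alone. A minimum absolute log2 fold change of 1 left 3 positive genes and 1 gene with both signs. Peaks of up to 1000 bp left 10 negative genes, 2 genes with both signs and a median that turned to 0.59, since 16 wide peaks drop out. The KEGG pathway with no gene left out had 16 positive genes. The median of -0.99 moved to -1.03 with the largest change, -0.75 with the mean, -1.33 relative to the table's median, -1.03 with 3′ UTR peaks and -0.84 with no gene left out. The 6 positive peaks at gene ends numbered 5 to 6 under 4 alternatives added after the data were seen. The negative ones, 1 of 9 in the main setting, numbered 0 to 3, the most being 3 of 11 with peaks of any width. No paired analysis was possible because the table has no values per library, so leaving out replicates and the replicate block were not run. A motif search in the peaks was not run either.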

Other observations

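Uncalled leading peaks were large. In the 6 genes without a call, Bmp6, Inhbb, Tnf, Lefty1, Tgif2 and Id4, the absolute log2 fold change of the leading peak was at least 0.99 in the authors' deposited table, and 5 of the 6 were positive. Over all 10277 listed genes 1942 leading peaks were uncalled. Their sizes and signs were not computed, so whether these 6 differ from them is not known. Inhbb and Acvr2b lie on either side of the FDR threshold with values of 3.27 and 1.93, larger than any positive value with stronger evidence among the 37 genes.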
